A study of Mus musculus with 7 samples.

Results

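Myeloid cells taken from tumor tissue were set against myeloid cells taken from the spleen of tumor-bearing mice. The members were the counted cells of these 2 libraries, without the deposited clusters 11, 12, 13 and 17, and no measured gene was used to choose a library. They came to 1687 cells of tumor tissue and 556 cells of tumor-bearing spleen, 2243 of the 4290 counted cells of the series. The clusters left out held 230 cells of tumor tissue and 23 of tumor-bearing spleen. The level of the macrophage gene C1qa in cluster 11 of tumor tissue was 3080.1 CPM (counts per 1000000 UMIs, a UMI or unique molecular identifier being 1 counted RNA molecule). The level of the neutrophil gene S100a8 in cluster 12 of tumor-bearing spleen was 21777 CPM, and the cells of cluster 13 had a median of 1477.5 UMIs. Cluster 17 held 55 tumor tissue cells and none of the spleen.

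Both libraries came from C57/Bl6 mice bearing LLC tumors (Lewis lung carcinoma, a mouse lung cancer line grown in this strain) at day 14, and both held cells enriched for CD11b, an integrin chain on monocytes, macrophages, neutrophils and some dendritic cells. The series design names magnetic separation for this enrichment and oligo-tagged antibodies for the surface readout. The other 5 libraries were tumor-bearing blood and marrow and naive spleen, blood and marrow, and they appear below only side by side. Each group was 1 library, so no difference was tested and none has a p-value, and intervals in parentheses are exact 95% intervals that cover counting error only. They are too narrow, because UMIs of the same cell are not independent draws. The labels do not give the number of animals behind a library, whether the tumor and the spleen came from the same animals, or how either tissue was brought into suspension.

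Monocytes leave the marrow, circulate, and are also held in the spleen as a reserve that can be released to injured or tumor tissue. In tumors they differentiate into macrophage-like cells that can secrete chemokines and growth factors, use glycolysis under low oxygen, deplete arginine and remodel the matrix. Classical monocytes carry Ly6C and the chemokine receptor Ccr2, and non-classical monocytes patrol vessels and carry Cx3cr1, Ace and the integrin chain Itgal.

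Both libraries had similar depth and mitochondrial share per cell. Gene positions below are those of build GRCm38 in the GENCODE M21 annotation. Total UMIs were 15917093 in tumor tissue and 5578269 in tumor-bearing spleen, with medians of 8640 UMIs per cell in tumor tissue and 9890.5 in tumor-bearing spleen. The median share of mitochondrial UMIs was 3.28% in tumor tissue and 3.30% in tumor-bearing spleen, and no cell barcode was shared (0 of 2243 cells). The markers of the labelled cells were present in both: the 12 monocyte markers, all measured, summed to 16722 CPM in tumor tissue and 15336 CPM in tumor-bearing spleen. Itgam, the gene of CD11b, stood at 540.0 CPM in tumor tissue and 293 CPM in tumor-bearing spleen. Markers of carcinoma and epithelial cells summed to 9.11 CPM in tumor tissue and 4.12 CPM in tumor-bearing spleen, those of fibroblasts and stroma to 21.99 CPM in tumor and 8.78 CPM in spleen, and those of endothelium to 10.5 CPM in tumor and 6.99 CPM in spleen. None of these 3 lists had a measured gene, a measured gene being one with at least 30 UMIs over both libraries and 20 CPM in one. The 13 T and NK cell markers in the table summed to 275 CPM in tumor tissue and 36.2 CPM in tumor-bearing spleen. Of these Ccl5, which monocytes and macrophages can also express, had 225 CPM in tumor and 17.9 CPM in spleen, Il7r had 44.7 CPM in tumor and 0.179 CPM in spleen, and Klrd1 had 4.90 CPM in tumor and 10.0 CPM in spleen. Each of the others was under 4 CPM in both, and Cd3d, Cd3e and Cd3g, which define T cells, had at most 3 UMIs each. Neutrophil markers summed to 488 CPM in tumor tissue and 3595 CPM in tumor-bearing spleen, and B cell markers to 46.9 CPM in tumor and 387 CPM in spleen. Both are taken up again beside the genes they touch.

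Tumor tissue exceeded tumor-bearing spleen by 2-fold or more in 594 of 5717 measured genes (10.4%) and fell short of it by 2-fold or more in 764 (13.4%). At 10-fold or more, 156 were higher and 25 lower. The higher genes took 18.6% of all UMIs in tumor tissue and 4.20% in tumor-bearing spleen, while the lower genes took 3.28% in tumor tissue and 9.03% in tumor-bearing spleen. The median log2 ratio over all measured genes, on the scale of CPM + 1, was -0.20. Scaling by TMM factors put that median at 0.15, DESeq2 size factors at 0.18, and totals without mitochondrial, ribosomal protein and haemoglobin genes at -0.33. The higher genes made up 43.7% of the genes past 2-fold as reported, 67.9% with TMM factors, 70.1% with DESeq2 size factors and 34.2% with the last scaling. Ratios below are therefore to be read against that median, and lists near it have no direction of their own.

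**Figure D1:**
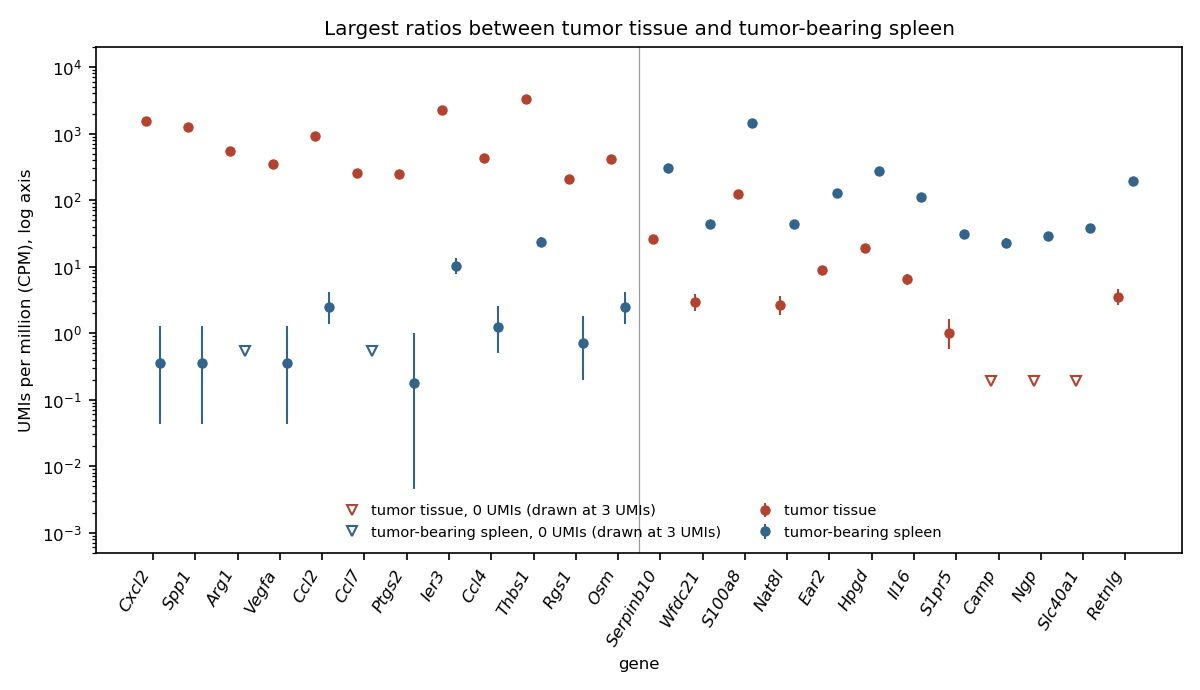
CPM on a log axis of the 12 genes with the highest and the 12 with the lowest ratio, in tumor tissue (red) and tumor-bearing spleen (blue). Vertical lines are exact 95% Poisson intervals for counting error, and open triangles mark 0 UMIs, drawn at the level of 3 UMIs; the left 12 genes lie above 200 CPM in tumor tissue and below 24 CPM in tumor-bearing spleen.

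Chemokines gave the widest gaps. All 7 measured CXC chemokine genes and 8 of 9 measured CC chemokine genes were at least 2-fold higher in tumor tissue and none was lower, with median log2 ratios of 5.46 and 5.10. Cxcl2 (chr5:90903871-90905938, plus strand), whose product attracts neutrophils through Cxcr2, stood at 1566 CPM in tumor tissue and 0.359 CPM in tumor-bearing spleen, which was 24925 UMIs against 2 and a ratio of 4368 (1209 to 36066). Its relatives Cxcl3 and Cxcl1 stood at 57.0 and 43.1 CPM in tumor tissue, against 0 UMIs of either in tumor-bearing spleen, so they were at least 106-fold and at least 80.1-fold higher at a floor of 3 UMIs. Cxcl10, a chemokine for T cells and NK cells, had 1731 CPM in tumor tissue and 32.1 CPM in tumor-bearing spleen, and its level among tumor clusters ran from 109 to 8699 CPM. The highest spleen cluster reached 109 CPM, the level of the lowest tumor cluster.

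Chemokines that attract monocytes followed. Ccl2, the ligand of Ccr2 that draws classical monocytes into tissue, had 908 CPM in tumor tissue and 2.51 CPM in tumor-bearing spleen, 362-fold higher (215 to 662). Ccl7, another Ccr2 ligand, had 257 CPM in tumor tissue and 0 UMIs in tumor-bearing spleen. It was 478-fold higher at the floor of 3 UMIs, with an exact lower limit of 389-fold. Ccl12, a mouse chemokine of the same cluster, had 106 CPM in tumor tissue and 0.179 CPM, 1 UMI, in tumor-bearing spleen. Ccl4, an inflammatory chemokine of macrophages, had 429 CPM in tumor tissue and 1.25 CPM in tumor-bearing spleen. Each of these had its lowest tumor cluster above its highest spleen cluster. Ccl5 did not: it ran from 4.56 to 704 CPM over tumor clusters, against 6.36 to 30.04 CPM over spleen clusters. Ccl6 was the one measured CC chemokine short of 2-fold, with 1306 CPM in tumor tissue and 1063 CPM in tumor-bearing spleen.

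The promoter of Cxcl2 is shown because its gene had the largest ratio of all measured genes and every measured CXC gene was higher. In RefSeq promoters (build GRCm38.p6, 250 bases before to 50 after the gene start), a match to the NF-kB motif on either strand stood in 4 of the 5 measured CXC chemokine genes that have a single promoter entry (80.0%: Cxcl1, Cxcl2, Cxcl3 and Cxcl10). A match stood in 1.62% of the 3519 measured genes and in 1.41% of all 22862 genes with a single promoter entry. The promoter of Cxcl2 is chr5:90903649-90903948, plus strand, with the match in capitals. The capitals hold 2 overlapping matches, 97 and 96 bases before the gene start.
Cxcl2: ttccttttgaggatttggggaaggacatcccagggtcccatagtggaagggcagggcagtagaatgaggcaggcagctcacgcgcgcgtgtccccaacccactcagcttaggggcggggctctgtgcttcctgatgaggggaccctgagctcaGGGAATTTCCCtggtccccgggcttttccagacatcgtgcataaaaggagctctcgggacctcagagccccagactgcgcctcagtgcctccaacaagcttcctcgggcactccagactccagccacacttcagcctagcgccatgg
The Cxcl2 match lies in a promoter whose gene had UMIs in 62.1% of tumor tissue cells (59.7 to 64.4) and in 1 of 556 cells of tumor-bearing spleen. With each cell thinned to 5000 UMIs the shares were 53.6% in tumor tissue and 0.183% in tumor-bearing spleen. In cluster 17 of the same tumor library, which was left out of the comparison, the share was 14.8% with cells thinned to 5000 UMIs and 34.5% unthinned, at a median of 10695 UMIs per cell and a summed level of 39.3 CPM. Free RNA as a source of part of these shares was not tested. A match is a description of letters and not evidence of binding.

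Of the cytokine and growth factor list, 11 of 13 measured members were at least 2-fold higher in tumor tissue and none lower. Il1b, the inflammasome-processed cytokine, was among the most abundant RNAs of tumor tissue, with 6497 CPM, against 137 CPM in tumor-bearing spleen, a 47.5-fold difference (44.2 to 51.1). It ran from 3682 to 7705 CPM over the 6 tumor clusters and from 78.9 to 219 CPM over the 5 spleen clusters. Osm, an IL-6 family cytokine, had 417 CPM in tumor tissue and 2.51 CPM in tumor-bearing spleen. Vegfa, the main angiogenic growth factor, had 352 CPM in tumor tissue and 0.359 CPM, 2 UMIs, in tumor-bearing spleen, a ratio of 983 (272 to 8119). Areg, a ligand of the EGF receptor, had 33.1 CPM in tumor tissue and 0 UMIs in tumor-bearing spleen. It was 61.6-fold higher at the floor of 3 UMIs, with an exact lower limit of 49.9-fold. The 2 members short of 2-fold were Tgfb1, at 526 CPM in tumor and 487 CPM in spleen, and Pdgfb, at 21.7 CPM in tumor and 15.6 CPM in spleen. The cytokine genes Il6, Il10, Il12b and Il23a stayed under the minimum for a measured gene, with 1.13 to 7.54 CPM in tumor tissue, against 0 UMIs in tumor-bearing spleen.

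Receptors split in both directions, 6 of 12 measured chemokine and egress receptors higher and 3 lower in tumor tissue. The receptor of the C3a anaphylatoxin, C3ar1, had 274 CPM in tumor tissue and 1.61 CPM in tumor-bearing spleen, 170.1-fold higher (89.5 to 372). The chemerin-binding receptor gene Ccrl2 had 396 CPM in tumor tissue and 7.35 CPM in tumor-bearing spleen. S1pr5, a sphingosine 1-phosphate receptor that non-classical monocytes use to leave the marrow, was 30.5-fold lower (18.2 to 54.6), with 1.01 CPM in tumor tissue and 30.7 CPM in tumor-bearing spleen. Ccr2 itself was 651 CPM in tumor tissue and 723 CPM in tumor-bearing spleen, short of 2-fold, while its ligands Ccl2, Ccl7 and Ccl12 were far apart.

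Adhesion genes were the reverse case for their largest members. Of 15 measured integrin and adhesion genes, 2 were higher and 4 lower in tumor tissue, and the list median of -0.21, near that of all genes, became 0.25 with TMM factors. Itgal (chr7:127296260-127335138), the alpha chain of LFA-1 with which leukocytes bind ICAM-1 on vessels, had 85.2 CPM in tumor tissue and 597 CPM in tumor-bearing spleen, 7.01-fold lower (6.57 to 7.47). Itga4, the alpha chain of VLA-4, had 77.9 CPM in tumor tissue and 487 CPM in tumor-bearing spleen. Spn, the sialoglycoprotein CD43 of non-classical monocytes, had 21.0 CPM in tumor tissue and 153 CPM in tumor-bearing spleen. For Itgal, Itga4 and Vcam1 every tumor cluster lay below every spleen cluster. Spn overlapped, because tumor cluster 9 had 66.7 CPM and spleen cluster 0 had 51.8 CPM. Vcam1, a ligand of VLA-4, had 3.58 CPM in tumor tissue and 28.3 CPM in tumor-bearing spleen, and 1 spleen cell held 44 of its 158 UMIs there.

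**Figure D2:**
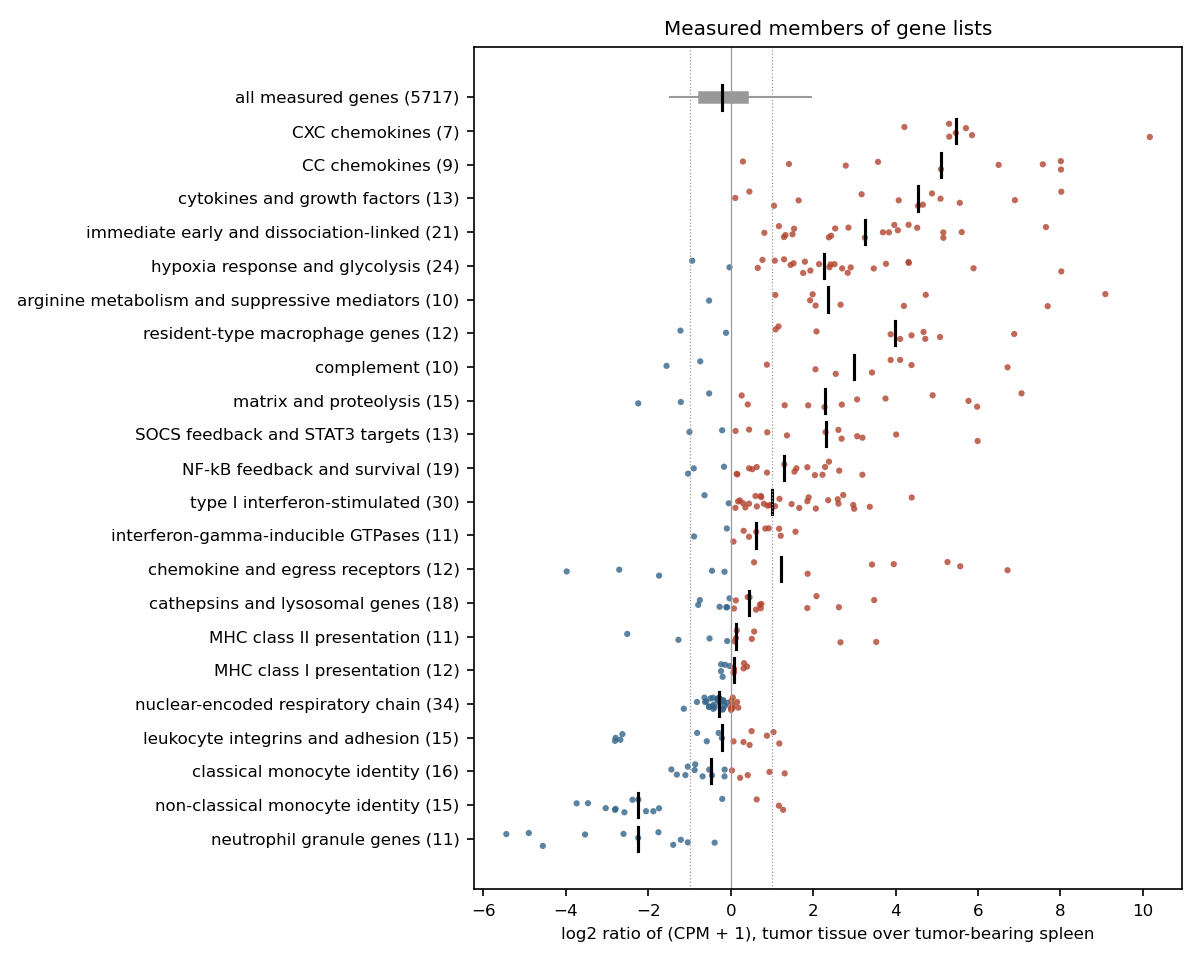
Log2 ratio of CPM + 1, tumor tissue over tumor-bearing spleen, of each measured member of 22 gene lists (points, red above and blue below 0; number of measured members in parentheses), with the list median as a black bar. The top row shows all 5717 measured genes (thick bar, middle 50%; thin line, middle 90%), and dotted lines mark 2-fold; the chemokine lists lie farthest right and the granule and non-classical monocyte lists farthest left.

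Low oxygen stabilises HIF-1, which turns on genes of glucose uptake, glycolysis and lactate export. Of 24 measured hypoxia and glycolysis genes, 20 were at least 2-fold higher in tumor tissue and none lower, with a median log2 ratio of 2.27. Hilpda, a HIF target on lipid droplets, had 304 CPM in tumor tissue and 4.12 CPM in tumor-bearing spleen, 73.6-fold higher (49.0 to 116). Ankrd37, another HIF target, had 126 CPM in tumor tissue and 5.38 CPM in tumor-bearing spleen, 23.5-fold higher (16.4 to 34.9). Egln3, the oxygen-sensing prolyl hydroxylase that HIF itself induces, had 36.8 CPM in tumor tissue and 0.896 CPM in tumor-bearing spleen. Among the enzymes, which were chosen after their values were seen, Ldha had 1197 CPM in tumor and 227 CPM in spleen, Pkm 2029 CPM in tumor and 599 CPM in spleen, and the glucose transporter gene Slc2a1 235 CPM in tumor and 16.3 CPM in spleen. The 4 members short of 2-fold were Hk2, Gpi1, Bnip3l and Ndrg1. Of these Bnip3l, a mitophagy receptor, stood at 121 CPM in tumor tissue, against 232 CPM in tumor-bearing spleen.

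The core letters of the hypoxia response element, ACGTG on either strand, stood in the promoters of 11 of the 15 measured list members with a single promoter entry (73.3%). The share was 27.8% over measured genes and 19.4% over all genes with a single entry. The list is named for this response, so its share describes the choice of list and not these data. A match is not evidence of binding. The promoter of Ankrd37 is shown because its gene had the largest log2 ratio of CPM + 1 of those 11, 4.321 against 4.315 for Egln3. Without the pseudo-count the ratio of Egln3, which had 5 UMIs in the spleen, was larger. The Ankrd37 promoter is chr8:45999801-46000100, minus strand, with the 2 matches in capitals, 241 and 6 bases before the gene start.
Ankrd37: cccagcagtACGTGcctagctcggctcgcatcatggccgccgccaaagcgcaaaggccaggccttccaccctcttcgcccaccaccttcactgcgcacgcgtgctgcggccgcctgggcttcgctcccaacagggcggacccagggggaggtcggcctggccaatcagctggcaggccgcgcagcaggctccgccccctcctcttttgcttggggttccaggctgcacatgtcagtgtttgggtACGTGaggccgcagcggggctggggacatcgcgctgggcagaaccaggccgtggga
Of the hypoxia list, 16 members had every tumor cluster above every spleen cluster, against 10.5% of all measured genes. The lowest tumor cluster for Hilpda, Ankrd37, Egln3 and Vegfa was cluster 9 each time.

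Genes of arginine metabolism and suppressive mediators were higher in tumor tissue in 9 of 10 measured members, and none was lower. Arg1 (chr10:24915221-24927484), which breaks down the arginine that T cells need, had 545 CPM in tumor tissue and 0 UMIs in tumor-bearing spleen. It was 1013-fold higher at the floor of 3 UMIs, with an exact lower limit of 824-fold. It ran from 14.8 to 1098 CPM over tumor clusters and had a UMI in 48.0% of tumor cells (45.5 to 50.4), against 0 of 556 spleen cells. The exact interval of the spleen share ends at 0.661%, a limit on cells with a UMI and not on cells that express the gene. In cluster 17 of the tumor library, left out of the comparison, the Arg1 share was 14.5%. With each cell thinned to 5000 UMIs the shares were 40.2% in tumor tissue, 7.41% in cluster 17 and 0% in tumor-bearing spleen. Ptgs2, the inducible cyclooxygenase of prostaglandin synthesis, had 243 CPM in tumor tissue and 0.179 CPM, 1 UMI, in tumor-bearing spleen, a ratio of 1356 (243 to 53556). Hpgd, the enzyme that degrades prostaglandins, went the other way, with 19.0 CPM in tumor tissue and 273 CPM in tumor-bearing spleen, 14.4-fold lower (12.7 to 16.3). Trem1, a receptor that amplifies inflammatory signals, had 164 CPM in tumor tissue and 5.20 CPM in tumor-bearing spleen. Nt5e, the CD73 ectoenzyme that makes adenosine, was near the minimum, with 20.7 CPM in tumor tissue and 0.179 CPM in tumor-bearing spleen. Nos2, which competes with Arg1 for arginine, was not measured, with 3.77 CPM in tumor tissue and 0 UMIs in tumor-bearing spleen.

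Glycoproteins and lipid genes of tumor macrophages were higher in 10 of 13 measured members and lower in none. Spp1 (chr5:104435118-104441050), the secreted phosphoprotein osteopontin, had 1246 CPM in tumor tissue and 0.359 CPM, 2 UMIs, in tumor-bearing spleen, a ratio of 3476 (962 to 28705), and ran from 69.0 to 2555 CPM over tumor clusters. It had a UMI in 65.6% of tumor tissue cells, against 0.360% of spleen cells, and in 41.8% of cells of cluster 17 of the tumor library, where its summed level was 430.2 CPM. With each cell thinned to 5000 UMIs the Spp1 shares were 53.8% in tumor tissue, 25.9% in cluster 17 and 0.366% in tumor-bearing spleen. Abca1, a cholesterol exporter, had 65.2 CPM in tumor tissue and 4.84 CPM in tumor-bearing spleen. The tetraspanin gene Cd63 had 102 CPM in tumor tissue and 5.38 CPM in tumor-bearing spleen, and its relative Cd9 had 245 CPM in tumor and 28.1 CPM in spleen. Apoe and Lgals3 were abundant in both and short of 2-fold, Apoe with 2226 CPM in tumor tissue and 1224 CPM in tumor-bearing spleen.

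Genes typical of tissue macrophages were higher in 10 of 12 measured members and lower in 1, although cluster 11 had been left out. C1qa, C1qb and C1qc, the 3 chains of complement C1q, had 450.1, 647 and 299 CPM in tumor tissue, against 25.1, 29.9 and 19.4 CPM in tumor-bearing spleen. In the spleen, 1 cell held 73 of 140 C1qa UMIs, 75 of 167 C1qb UMIs and 53 of 108 C1qc UMIs, and the same cell held 68 of 209 UMIs of the iron exporter gene Slc40a1. C1q and Slc40a1 are on the list of red pulp macrophage markers, which summed to 1892 CPM in tumor tissue and 659 CPM in tumor-bearing spleen, and without that cell the C1qa level of tumor-bearing spleen would be 12.01 CPM. In tumor tissue C1qa ran from 53.6 to 1138 CPM over clusters, and cluster 11, left out, stood at 3080.1 CPM. Ms4a7 had 360.4 CPM in tumor tissue and 13.1 CPM in tumor-bearing spleen. Pf4, a chemokine stored in platelets and also made by macrophages, had 138 CPM in tumor tissue and 0.179 CPM, 1 UMI, in tumor-bearing spleen. The 8 platelet and megakaryocyte markers, Pf4 among them, summed to 143 CPM in tumor tissue and 2.33 CPM in tumor-bearing spleen. Of the others, Ppbp had 5.03 CPM in tumor tissue and 0 UMIs in tumor-bearing spleen, Clec1b had 0.126 CPM in tumor and 1.97 CPM in spleen, Itga2b had 1 UMI in each, and Gp9, Gp1bb, Gp5 and Tubb1 had 0 UMIs in both. The part of platelets in the Pf4 level was not tested. The scavenger receptor gene Stab1 had 38.9 CPM in tumor tissue and 0.179 CPM in tumor-bearing spleen.

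Complement as a whole was higher in 7 of 10 measured members and lower in 1. Matrix and proteolysis genes were higher in 10 of 15 measured members and lower in 2. Thbs1, the matrix glycoprotein thrombospondin 1, had 3286 CPM in tumor tissue and 23.7 CPM in tumor-bearing spleen, 139-fold higher (117 to 166), with 2067 to 6129.6 CPM over tumor clusters and 7.36 to 59.9 CPM over spleen clusters. Timp1, an inhibitor of metalloproteinases, had 62.1 CPM in tumor tissue and 0 UMIs in tumor-bearing spleen, at least 116-fold higher. Mmp14, a membrane-bound collagenase, had 92.8 CPM in tumor tissue and 0.717 CPM in tumor-bearing spleen, and the sheddase gene Adam8 had 419.7 CPM in tumor and 13.1 CPM in spleen. The 2 lower members, Mmp8 and Mmp9, are stored in neutrophil granules; Mmp9 had 6.28 CPM in tumor tissue and 33.5 CPM in tumor-bearing spleen.

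Lysosomal genes differed little as a list, with 4 of 18 measured members higher, none lower and a median log2 ratio of 0.43. The 4 were proteases: Ctsl with 599 CPM in tumor tissue and 52.7 CPM in tumor-bearing spleen, Lgmn with 1100.1 CPM in tumor and 177 CPM in spleen, Ctsd with 581 CPM in tumor and 136 CPM in spleen, and Ctsc with 1571 CPM in tumor and 432 CPM in spleen. The membrane genes Lamp1 and Lamp2 and the sphingolipid activator gene Psap were short of 2-fold, Psap with 2930.5 CPM in tumor tissue and 5062 CPM in tumor-bearing spleen. Among antioxidant genes 5 of 13 were higher and 1 lower. Slc7a11, the cystine importer, had 40.4 CPM in tumor tissue and 2.33 CPM in tumor-bearing spleen, and the metallothionein gene Mt1 had 111 CPM in tumor and 15.2 CPM in spleen. Gsr, glutathione reductase, was lower, with 298 CPM in tumor tissue and 739 CPM in tumor-bearing spleen. In tumor cluster 9 Gsr had 735 CPM, within the 575 to 827 CPM of the spleen clusters. Among 10 measured iron genes 2 were higher and 2 lower. Fth1, the heavy chain of ferritin, had the largest difference in CPM of all measured genes, with 12562 CPM in tumor tissue and 3252 CPM in tumor-bearing spleen. Slc11a1, a phagosomal metal transporter, had 238 CPM in tumor and 103 CPM in spleen. Slc40a1, ferroportin, had 0 UMIs in tumor tissue and 37.5 CPM in tumor-bearing spleen, at least 199-fold lower.

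Interferon genes were higher in tumor tissue as a sum, but their levels overlapped between the clusters of the libraries. Of 30 measured type I interferon-stimulated genes, 15 were at least 2-fold higher in tumor tissue and none lower, with a median log2 ratio of 1.01, and 20 were higher with TMM factors. None of the 30 had every tumor cluster above every spleen cluster. Isg15, a ubiquitin-like protein, had 1962 CPM in tumor tissue and 249 CPM in tumor-bearing spleen, from 347 to 7321 CPM over tumor clusters and from 89.0 to 590.4 CPM over spleen clusters. The antiviral gene Rsad2 had 739 CPM in tumor tissue and 34.2 CPM in tumor-bearing spleen, but in tumor cluster 7 it stood at 27.8 CPM, under the 74.4 CPM of spleen cluster 2. Ifit1 and Oasl1 had the same form, each highest in tumor cluster 10 and, within the spleen, in cluster 2. Of 11 interferon-gamma-inducible GTPases 3 were higher and none lower. Gbp2 had 417 CPM in tumor tissue and 179 CPM in tumor-bearing spleen, with 42.0 to 1625 CPM over tumor clusters and 28.2 to 568 CPM over spleen clusters.

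The promoter of Cxcl10 shows the interferon motif in a chemokine of the same cluster. A match to the interferon-stimulated response element on either strand stood in 13 of 19 measured type I interferon-stimulated genes with a single promoter entry (68.4%), in 4.09% of measured genes and in 3.58% of all genes with a single entry. The Cxcl10 promoter is chr5:92348840-92349139, minus strand, with 1 match in capitals, 213 bases before the gene start, and its NF-kB match left in lower case.
Cxcl10: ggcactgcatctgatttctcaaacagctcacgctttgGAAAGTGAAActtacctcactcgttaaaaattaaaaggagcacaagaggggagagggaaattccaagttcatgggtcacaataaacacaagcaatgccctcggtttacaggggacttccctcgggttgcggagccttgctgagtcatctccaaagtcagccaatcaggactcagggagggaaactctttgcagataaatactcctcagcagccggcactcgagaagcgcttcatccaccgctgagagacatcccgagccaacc
Like Rsad2, Cxcl10 was highest in tumor cluster 10 and, within the spleen, in cluster 2. The interferon list is named for the response of this motif, so its share of matches describes the choice of list and not these data. Here too a match is not evidence of binding.

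Antigen presentation was close to level. None of 12 measured MHC class I genes was past 2-fold, and their median log2 ratio of 0.07 became 0.40 with TMM factors and -0.03 without technical genes in the total. Tap2, the member with the largest ratio, had 112 CPM in tumor tissue and 85.0 CPM in tumor-bearing spleen. Of 11 measured members of the class II list 2 were higher and 2 lower. The higher ones were the costimulatory ligands of CD28, Cd80 with 60.3 CPM in tumor tissue and 4.30 CPM in tumor-bearing spleen and Cd86 with 155 CPM in tumor and 23.7 CPM in spleen. Ciita, the master regulator of class II transcription, was 6.42-fold lower (5.07 to 8.17), with 6.53 CPM in tumor tissue and 41.9 CPM in tumor-bearing spleen. The class II genes it controls were short of 2-fold, H2-Ab1 with 653 CPM in tumor tissue and 589 CPM in tumor-bearing spleen. Ciita and the lectin gene Cd209a were highest in spleen cluster 6, at 126 and 93.9 CPM, and without cluster 6 the call of Cd209a ended.

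**Figure D3:**
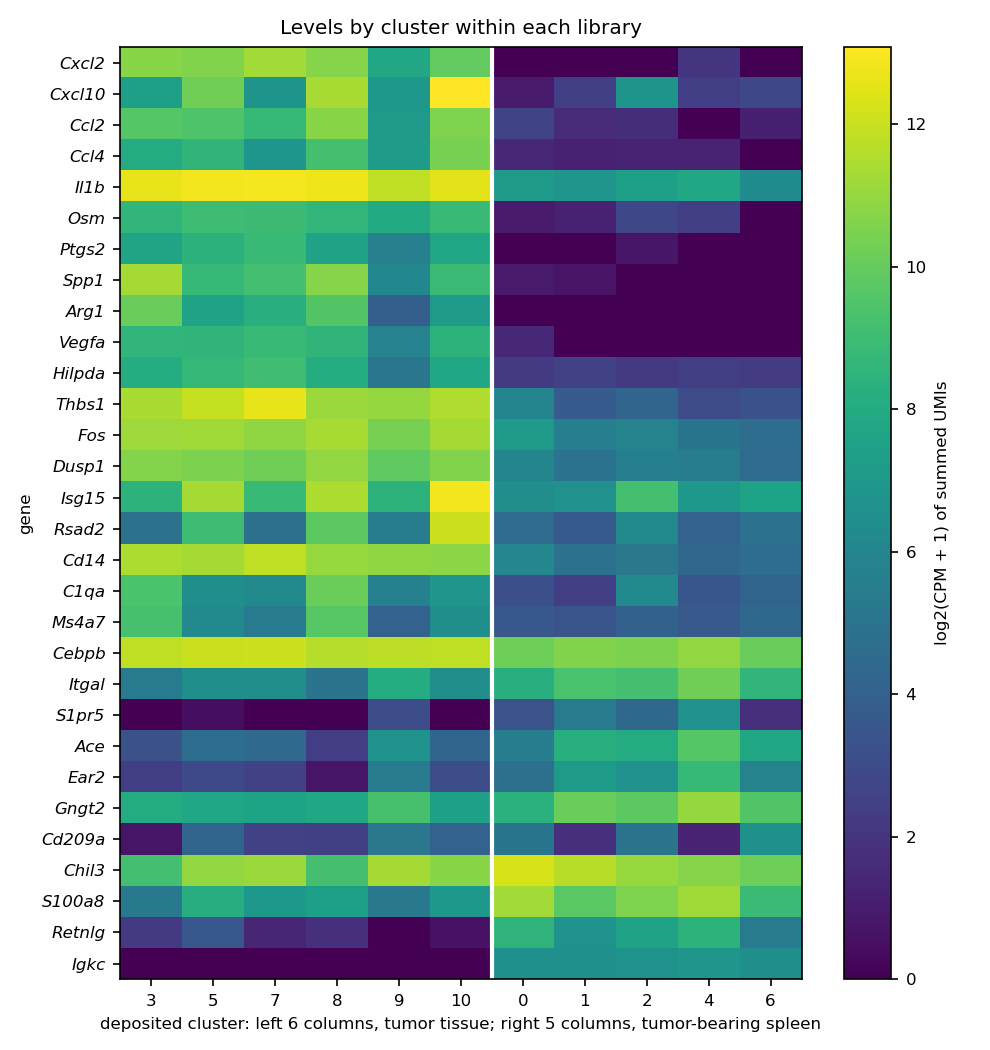
Log2 of CPM + 1 of summed UMIs for 30 genes in the deposited clusters with at least 20 cells of a library: the 6 tumor tissue clusters left of the white line, the 5 tumor-bearing spleen clusters right of it. Chemokines, hypoxia and immediate early genes are bright on the left and dim on the right, cluster 9 is the dimmest tumor column for most of them, and Igkc has one level over all spleen clusters and 0 UMIs on the left.

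Immediate early genes respond within minutes to growth factors, stress and cell handling. Of 21 measured members, 20 were at least 2-fold higher in tumor tissue and none lower, with a median log2 ratio of 3.26, and the same number, 20, had every tumor cluster above every spleen cluster. Fos, the partner of Jun in AP-1, had 2257 CPM in tumor tissue and 62.2 CPM in tumor-bearing spleen, 36.3-fold higher (32.6 to 40.4). Fosb had 179 CPM in tumor tissue and 2.69 CPM in tumor-bearing spleen. Dusp1, the phosphatase that shuts off MAP kinases, had 1524 CPM in tumor tissue and 41.6 CPM in tumor-bearing spleen. Ier3 had 2252 CPM in tumor tissue and 10.2 CPM in tumor-bearing spleen, 220.4-fold higher (170.1 to 291). Klf6 was the member short of 2-fold, with 388 CPM in tumor and 219.8 CPM in spleen. Tissue dissociation is known to induce this list, and the labels do not state how either tissue was handled. The part of handling was not tested for this list or for any other, the chemokine, cytokine and feedback lists among them. The 7 tumor tissue cells that fell in clusters 0, 1, 2, 4 and 6 with the spleen cells had 1566 CPM of Fos and 2143 CPM of Il1b. Of the other immediate early genes named here, Dusp1 had 742 CPM in these cells, Ier3 309 CPM (15 UMIs) and Fosb 124 CPM (6 UMIs). Cxcl2 had 20.6 CPM (1 UMI) there and Thbs1 82.4 CPM (4 UMIs). The clusters were made from the RNA of these cells, so these levels are only a description.

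Heat shock genes differed less, with 1 of 12 measured members higher and 1 lower. Hspa1a, the inducible Hsp70, had 413 CPM in tumor tissue and 43.2 CPM in tumor-bearing spleen, while Hsph1 had 21.2 CPM in tumor and 45.4 CPM in spleen. Of 12 measured endoplasmic reticulum stress genes 2 were higher and 1 lower, with a median log2 ratio of 0.28. Over all measured genes 10.4% were higher and 13.4% lower. The higher ones were Atf4, with 269 CPM in tumor tissue and 82.1 CPM in tumor-bearing spleen, and Ddit3, with 56.5 CPM in tumor and 14.2 CPM in spleen. Herpud1 had 55.2 CPM in tumor tissue and 129 CPM in tumor-bearing spleen.

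Feedback genes of inflammatory signalling were higher. Of 19 measured NF-kB feedback and survival genes 10 were higher and 1 lower in tumor tissue. Traf1 had 113 CPM in tumor tissue and 11.5 CPM in tumor-bearing spleen, the deubiquitinase gene Tnfaip3 had 120.5 CPM in tumor and 23.8 CPM in spleen, and the pro-survival gene Bcl2a1b had 214 CPM in tumor and 40.2 CPM in spleen. Bcl2l11, which promotes cell death, was higher too, with 276 CPM in tumor tissue and 43.6 CPM in tumor-bearing spleen. Bcl2a1b has near-identical copies, so its UMIs may be split among them. Of 13 measured SOCS and STAT3 genes 8 were higher and 1 lower. Socs1, an inhibitor of JAK kinases, had 94.7 CPM in tumor tissue and 10.4 CPM in tumor-bearing spleen, and Pim1 had 587 CPM in tumor and 63.1 CPM in spleen. Il1r2, the decoy receptor of interleukin 1, had 87.1 CPM in tumor tissue and 16.9 CPM in tumor-bearing spleen. Of 11 measured glucocorticoid-responsive genes 7 were higher and 2 lower; with TMM factors none was lower. Errfi1 and Sgk1 were higher, Sgk1 with 247 CPM in tumor tissue and 45.2 CPM in tumor-bearing spleen, while Fkbp5, a direct target of the receptor, stood at 15.2 CPM in tumor tissue and 33.9 CPM in tumor-bearing spleen.

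Receptors for microbes and antibodies were higher in part. Of 17 measured Toll-like and lectin receptors 7 were higher and 3 lower. Cd14, the co-receptor for lipopolysaccharide, had 2563 CPM in tumor tissue and 39.3 CPM in tumor-bearing spleen, 65.3-fold higher (57.2 to 74.9), and it did not overlap between clusters, at 1820.1 to 3669 CPM in tumor tissue and 19.1 to 64.5 CPM in tumor-bearing spleen. Tlr2 had 459 CPM in tumor tissue and 55.0 CPM in tumor-bearing spleen, and the C-type lectin gene Clec4d had 508 CPM in tumor and 36.7 CPM in spleen. The lectin gene Clec4n had 303 CPM in tumor and 25.3 CPM in spleen. Of 6 Fc gamma receptor genes 3 were higher and none lower. Fcgr1, the high-affinity receptor for IgG, had 984 CPM in tumor tissue and 139 CPM in tumor-bearing spleen, Fcgr4 had 151 CPM in tumor and 50.9 CPM in spleen, and the inhibitory Fcgr2b had 435 CPM in tumor and 159 CPM in spleen.

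Genes of monocyte identity separated by subset. Of 16 measured classical monocyte genes 1 was higher and 4 lower in tumor tissue, and 1 was lower with TMM factors. Ly6c2, the gene of Ly6C, was short of 2-fold, with 1531 CPM in tumor tissue and 1307 CPM in tumor-bearing spleen. Hp, haptoglobin, had 319.8 CPM in tumor tissue and 686 CPM in tumor-bearing spleen, and its call ended under 3 alternatives. It ran from 90.8 CPM in tumor cluster 3 to 1077 CPM in tumor cluster 9, above the 334 to 1052 CPM of the spleen clusters. Mgst1, a microsomal glutathione transferase, had 198 CPM in tumor and 538 CPM in spleen. In tumor cluster 9 Mgst1 had 557 CPM, within the 278 to 736 CPM of the spleen clusters. The proteoglycan gene Vcan, the higher member, had 251 CPM in tumor and 101 CPM in spleen. Chil3, a chitinase-like protein of classical monocytes and neutrophils, had 1400.1 CPM in tumor tissue and 2882 CPM in tumor-bearing spleen, close to 2-fold. Of 15 measured non-classical genes 11 were lower and 2 higher, and the 11 were also lower with TMM and DESeq2 factors. Ace (chr11:105967945-105989964), angiotensin-converting enzyme, had 25.2 CPM in tumor tissue and 288 CPM in tumor-bearing spleen, 11.4-fold lower (10.2 to 12.8). Ear2, an eosinophil-associated ribonuclease used as a marker of the subset, had 8.80 CPM in tumor tissue and 129.8 CPM in tumor-bearing spleen. Adgre4 had 18.4 CPM in tumor tissue and 158 CPM in tumor-bearing spleen. Spleen cluster 4, with 75 cells, was the highest in Ace, Ear2, Adgre4, Treml4 and Spn, and without that cluster 10 of 14 measured members were lower and 3 higher. Nr4a1, the transcription factor these monocytes need, was higher, with 473 CPM in tumor and 209.7 CPM in spleen; it is also an immediate early gene.

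Of 22 measured transcription factors of monocyte fate 10 were higher and 3 lower. Runx3 had 518 CPM in tumor tissue and 63.6 CPM in tumor-bearing spleen, Bhlhe40 112 CPM in tumor and 19.2 CPM in spleen, and Cebpb, a driver of inflammatory myeloid genes, 3741 CPM in tumor and 1452 CPM in spleen. Batf3, known from conventional dendritic cells, was lower, with 10.2 CPM in tumor tissue and 57.7 CPM in tumor-bearing spleen. The lineage factors Spi1, Irf8 and Irf5 were short of 2-fold. Of 6 measured colony-stimulating factor receptors none was higher and 2 were lower, Csf3r with 53.2 CPM in tumor tissue and 203 CPM in tumor-bearing spleen and Flt3 with 3.83 CPM in tumor and 23.5 CPM in spleen.

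Neutrophil granule genes were lower in tumor tissue in 10 of 11 measured members, and none was higher. With DESeq2 factors 7 of 10 were lower. Retnlg had 3.52 CPM in tumor tissue and 196 CPM in tumor-bearing spleen, 55.7-fold lower (42.6 to 74.2). In the spleen 1 cell held 256 of its 1093 UMIs, and the rest came to 150 CPM. Lcn2, lipocalin 2, had 8.73 CPM in tumor tissue and 58.1 CPM in tumor-bearing spleen, and Wfdc21 had 2.89 CPM in tumor and 44.1 CPM in spleen. Camp and Ngp, made by immature neutrophils in the marrow, had 0 UMIs in tumor tissue, against 22.6 and 28.9 CPM in tumor-bearing spleen. At the floor of 3 UMIs they were 119.8-fold and 153-fold lower. Every spleen cluster held both, Camp at 12.5 to 32.4 CPM and Ngp at 21.3 to 42.6 CPM. Of the 8 S100 genes, all measured, 1 was higher, 2 were lower and 5 were short of 2-fold. The lower ones were S100a8 and S100a9, the calprotectin chains of neutrophils and monocytes, with 125 and 161 CPM in tumor tissue, against 1461 and 1513 CPM in tumor-bearing spleen. S100a10, a partner of annexin A2, was higher, with 1825 CPM in tumor tissue and 835 CPM in tumor-bearing spleen. A UMI of S100a8 was found in 9.90% of tumor tissue cells (8.52 to 11.4) and in 97.5% of spleen cells (95.8 to 98.6). Among the compared spleen cells 1 cell held 1177 of 8149 S100a8 UMIs, and the rest came to 1250 CPM. In cluster 12 of the spleen library, which was left out, S100a8 stood at 21777 CPM and Ngp at 1098.0 CPM. Of the neutrophil markers 8 of 10 measured were lower in tumor tissue and 2 higher, and Ly6g, which defines the cell type, had 0.188 CPM in tumor tissue and 4.12 CPM in tumor-bearing spleen. Retnlg, Ngp, Camp, Mmp8 and Ltf are on both the granule list and the marker list, so the counts of these lists are not independent. Of the markers that are not on the granule list, Csf3r had 53.2 CPM in tumor tissue and 203 CPM in tumor-bearing spleen, and Cxcr2 had 5.53 CPM in tumor and 41.6 CPM in spleen. G0s2 and Hdc were the 2 higher ones, with 54.6 and 46.4 CPM in tumor tissue, against 8.07 and 20.8 CPM in tumor-bearing spleen. The part of neutrophils in the levels of the granule genes was not tested.

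Immunoglobulin RNA was lower in tumor tissue as well. Igkc, the kappa light chain of B cells and plasma cells, had 0 UMIs in tumor tissue and 101 CPM in tumor-bearing spleen. The level was similar in the 5 spleen clusters, at 90.1 to 110.4 CPM, and 121 CPM in cluster 12, whose cells carried neutrophil genes. Its share of cells with a UMI was 61.2% over the compared spleen cells and 65.2% over the 23 cells of cluster 12, at medians of 9890.5 and 7046 UMIs. With cells thinned to 5000 UMIs the shares were 35.8% over the compared spleen cells and 55.6% over 18 cells of cluster 12. The 2 spleen cells in cluster 9 stood apart, with 23 Igkc UMIs between them, a level of 1011 CPM. Ighm differed in that tumor tissue held it too, with 40.5 CPM, against 213 CPM in tumor-bearing spleen. Cd79a, which defines B cells, had 0.0628 CPM in tumor tissue and 8.43 CPM in tumor-bearing spleen, and 7 of the 12 B cell markers had 0 UMIs in tumor tissue. Free RNA as a source of the granule and immunoglobulin genes was not tested.

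Few cell cycle genes were measured, and few respiratory chain and ribosomal protein genes were past 2-fold. Of 20 cell cycle genes 4 were measured, 1 higher and 1 lower; the higher one was the centromere histone gene Cenpa, with 43.2 CPM in tumor tissue and 10.0 CPM in tumor-bearing spleen, and the lower one Hmgb2, with 168 CPM in tumor and 464 CPM in spleen. The proliferation marker Mki67 was at 3.14 CPM in tumor tissue and 1.61 CPM in tumor-bearing spleen. Of 34 measured respiratory chain genes none was higher and 1 was lower, Atp5k, with 127 CPM in tumor tissue and 280.4 CPM in tumor-bearing spleen. Their median log2 ratio of -0.29 was near that of all genes and became 0.04 with TMM factors and 0.07 with DESeq2 factors, so the list has no direction of its own. Cytosolic ribosomal protein genes took 13.6% of UMIs in tumor tissue and 18.7% in tumor-bearing spleen. Of 88 measured, none was higher and 10 were lower, with a median log2 ratio of -0.41.

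Several of the largest differences in CPM lay in genes on none of the lists described above. Actg1, a cytoplasmic actin, had 8926 CPM in tumor tissue, against 2982 CPM in tumor-bearing spleen. Srgn, the proteoglycan core of secretory granules, had 4674 CPM in tumor tissue and 796 CPM in tumor-bearing spleen, and the histone gene H3f3b had 4397 CPM in tumor and 1288 CPM in spleen. Vim, an intermediate filament, was just past the size rule, with 5916 CPM in tumor tissue and 2897 CPM in tumor-bearing spleen. On the other side, Ptprc, which encodes CD45, had 461 CPM in tumor tissue and 1213 CPM in tumor-bearing spleen, 2.63-fold lower (2.55 to 2.72). Cybb, the catalytic subunit of the phagocyte NADPH oxidase, had 654 CPM in tumor tissue and 1518 CPM in tumor-bearing spleen. Gngt2 had 271 CPM in tumor tissue and 947 CPM in tumor-bearing spleen, the pore-forming Mpeg1 had 456 CPM in tumor and 926 CPM in spleen, and Lst1 had 614 CPM in tumor and 1302 CPM in spleen. Among the lowest ratios were Il16, a T cell attractant, with 6.41 CPM in tumor tissue and 109.9 CPM in tumor-bearing spleen, and Serpinb10 with 25.6 CPM in tumor and 299 CPM in spleen.

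The surface antibodies showed far smaller gaps than the RNA of the same cells. Of 47 antibodies, each given as counts per 10000 antibody counts of a library, 1 was at least 2-fold higher in tumor tissue (2.13%) and 1 at least 2-fold lower (2.13%). CD11b, the marker used for enrichment, had 2212 per 10000 in tumor tissue and 1044 in tumor-bearing spleen, 2.12-fold higher (2.11 to 2.13), and its 6 tumor clusters lay above its 5 spleen clusters. The CD11b antibody was higher still in tumor-bearing blood, at 2487 per 10000. It stood at 1984 in naive blood, 1687 in tumor-bearing marrow, 1037 in naive marrow and 758 in naive spleen. CD115, the receptor of CSF-1, had 161 per 10000 in tumor tissue and 665 in tumor-bearing spleen, 4.14-fold lower (4.09 to 4.18), with 131 to 199 over tumor clusters and 535 to 877 over spleen clusters. Its gene Csf1r was short of 2-fold, with 529.6 CPM in tumor tissue and 777 CPM in tumor-bearing spleen. CD14 antibody stood at 115 per 10000 in tumor tissue and 64.6 in tumor-bearing spleen, 1.78-fold higher, where its RNA was 65.3-fold higher (57.2 to 74.9). Ly-6C antibody stood at 1908 per 10000 in tumor tissue and 2938 in tumor-bearing spleen, 1.54-fold lower, and Ly6c2 RNA at 1531 CPM in tumor tissue and 1307 CPM in tumor-bearing spleen. Both were short of 2-fold, the antibody being lower in tumor tissue and the RNA higher.

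Of 37 antibodies whose gene was measured, 16 had a gene at least 2-fold higher in tumor tissue, and for none of the 16 was the antibody past 2-fold. Ly6a RNA had 461 CPM in tumor tissue and 31.6 CPM in tumor-bearing spleen, and the Ly-6A-E antibody stood at 126 per 10000 in tumor tissue and 146 in tumor-bearing spleen. CD45 antibody was 75.4 in tumor tissue and 76.2 in tumor-bearing spleen, although Ptprc RNA was lower. CD97 antibody was 124 per 10000 in tumor tissue and 227 in tumor-bearing spleen, short of 2-fold, where the RNA of its gene Adgre5 had 292 CPM in tumor tissue and 752 CPM in tumor-bearing spleen. No isotype control was among the antibodies, and 39 of the 47 lay between 30 and 200 per 10000 in both libraries, so how much of a count is unspecific cannot be told apart from signal. The median antibody count per cell was 1583 in tumor tissue and 1638.5 in tumor-bearing spleen.

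**Figure D4:**
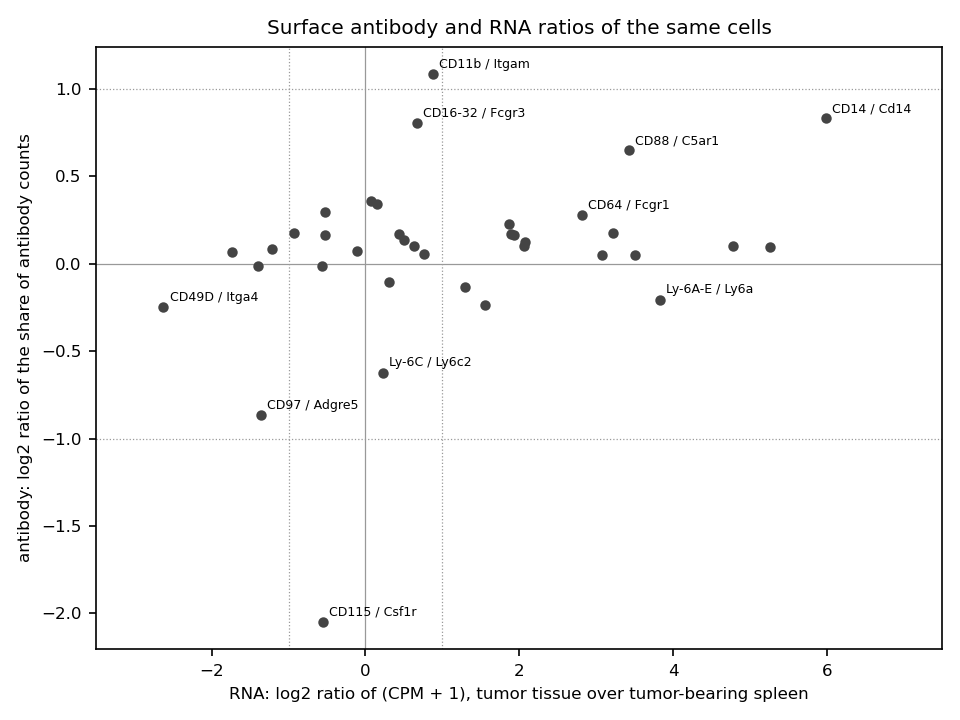
Log2 ratio of the antibody share (vertical) against the log2 ratio of RNA as CPM + 1 (horizontal), tumor tissue over tumor-bearing spleen, for the 37 antibodies with a measured gene; each point is 1 antibody, and dotted lines mark 2-fold. CD11b lies above and CD115 below the 2-fold lines of the antibody axis, while Cd14 RNA lies farthest right with a 1.78-fold higher antibody share.

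The cells of the 2 libraries fell almost wholly in different clusters. Of the tumor tissue cells, 1680 of 1687 lay in clusters 3, 5, 7, 8, 9 and 10, and 7 lay in clusters 0, 1, 2, 4 and 6. Of the spleen cells, 554 of 556 lay in clusters 0, 1, 2, 4, 6 and 16, and 2 in cluster 9. With 1 library a side such clusters may stand for the library as much as for a cell type, and no gene of these cells tests their difference. Over the 6 tumor and 5 spleen clusters with at least 20 cells, 600 measured genes (10.5%) had every tumor cluster above every spleen cluster, and 1248 (21.8%) had every tumor cluster below.

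Tumor cluster 9, with 198 cells, stood nearest to the spleen. Of the 594 higher genes, 386 had their lowest tumor level in cluster 9, and 332 (55.9%) were at least 2-fold above the spleen total there. In the other 5 tumor clusters the number ran from 484 in cluster 7 to 560 in cluster 8. Of the 764 lower genes, 493 had their highest tumor level in cluster 9, and 359 (47.0%) were at least 2-fold below the spleen total, against 612 to 702 in the other 5. Ace had 104 CPM in cluster 9, Itgal 270.4 CPM and Ear2 42.2 CPM, each the highest of the tumor clusters. For Ace and Ear2 this was above spleen cluster 0, and for Itgal below every spleen cluster. Arg1 was 14.8 CPM and Spp1 69.0 CPM in cluster 9, each the lowest of the tumor clusters. Il1b, Thbs1, Cd14 and Fos were still 3682, 2067, 1919 and 1336 CPM there, above every spleen cluster. Across all 6 tumor clusters, 291 of the 594 higher genes and 247 of the 764 lower genes were at least 2-fold from the spleen total in each. Cluster 9 had a median of 8782 UMIs per cell, within the 8231.5 to 9451 of the other tumor clusters. The clusters were made from the RNA of these cells, so this order is a description.

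The other 5 libraries, with the same clusters left out, give the context. Thbs1 had 3286 CPM in tumor tissue and 23.7 CPM in tumor-bearing spleen, and stood at 16.5 CPM in naive spleen, 33.5 CPM in tumor-bearing blood and 26.3 CPM in tumor-bearing marrow. Cd14 lay at 33.7 CPM in naive spleen and between 32.8 and 36.2 CPM in blood and marrow, where tumor tissue had 2563 CPM. Fos was 328 CPM in tumor-bearing blood and 240.4 CPM in naive blood, above the 62.2 CPM of tumor-bearing spleen and far below the 2257 CPM of tumor tissue. Itgal was lowest in tumor tissue, with 85.2 CPM, against 183 CPM in naive marrow, 470.1 CPM in tumor-bearing blood and 597 CPM in tumor-bearing spleen. Ace was 40.3 CPM in naive marrow, near the 25.2 CPM of tumor tissue, and 218 CPM in naive spleen. S100a8 was 2568 CPM in tumor-bearing marrow and 654 CPM in naive spleen, on both sides of tumor-bearing spleen and above tumor tissue. Igkc was 87.4 CPM in naive spleen and 55.4 CPM in tumor-bearing blood, with 0 UMIs in tumor-bearing marrow. The tumor-bearing marrow library held 56 cells, so its levels are the least precise. Comparisons of these libraries with tumor tissue share that library, and no overlap between them is given.

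**Figure D5:**
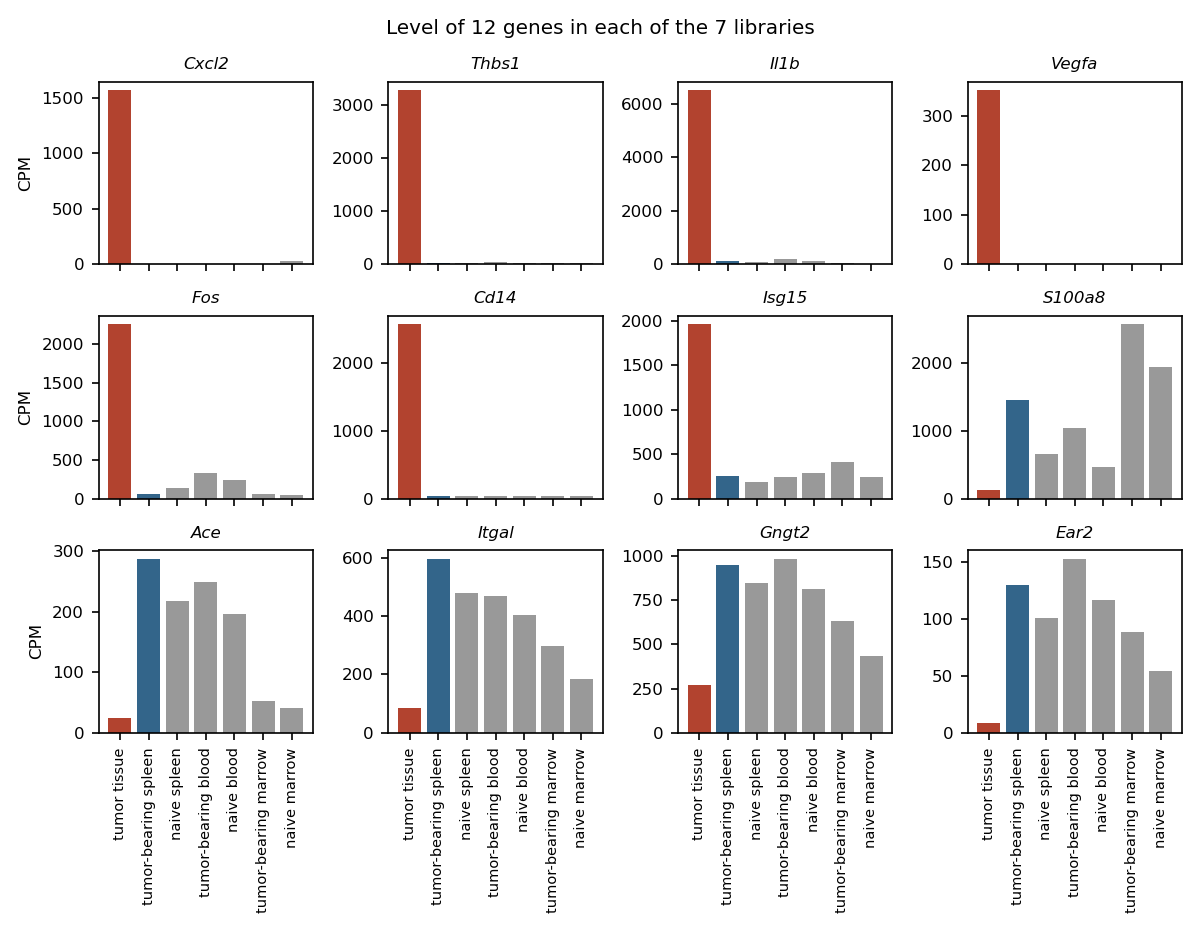
CPM of 12 genes in the 7 libraries, with tumor tissue in red, tumor-bearing spleen in blue and the other 5 in grey; each bar is 1 library, without replicates or error bars, and each panel has its own axis from 0. Cxcl2, Thbs1, Il1b, Vegfa, Fos, Cd14 and Isg15 are highest in tumor tissue, and Itgal, Gngt2, Ear2, Ace and S100a8 lowest there.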

How the data were processed

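Chromium 3' libraries with antibody-derived tags were made from CD11b-enriched cells, per the labels' protocols; Cell Ranger and mm10 are named per the submitters' processing notes, and their versions were not given in the sources used. What the authors deposited was raw UMI counts per gene and cell, raw antibody counts per cell, cluster numbers at resolution 1 and a mitochondrial share per cell, a fraction per the file headers and values. The table held 25127 genes and 4290 cells; the cell list named 4527, and all 4290 totals equalled the listed ones. No cell filter was added and no doublet caller was run. The deposited normalized values were not used.

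Counts were summed per library over the compared cells (1687 of tumor tissue, 556 of tumor-bearing spleen) and divided by the library total. Measured genes had 30 or more UMIs over both libraries and 20 CPM in one. A gene was called higher or lower at 2-fold or more, and log2 ratios and list medians used a pseudo-count of 1 CPM. With 1 library a group no test was run. Intervals are exact at 95%: Poisson for CPM, conditional binomial for ratios and Clopper-Pearson for shares. A count of 0 was given a floor of 3 UMIs per library, 0.188 CPM in tumor tissue and 0.538 CPM in tumor-bearing spleen. This floor is a convention. In tumor-bearing spleen it lies under the exact 95% upper limit of 0 UMIs, 0.661 CPM. Antibody counts were taken per 10000 of a library. Levels per cluster used clusters with at least 20 cells of the library. Thinned shares drew 5000 UMIs a cell, leaving out 149 cells of tumor tissue and 9 of tumor-bearing spleen. The calls and ratio intervals were tested on simulated library totals, drawn as independent Poisson counts without cells. Such draws cannot show how much too narrow the intervals are when UMIs of a cell are not independent.

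The comparison, its 47 gene lists (34 programmes and 13 marker lists) and the rules were chosen with earlier results of these data known, so no list is independent evidence. Some lists also share members, so their counts are not independent of each other. Dusp1 was on the immediate early and glucocorticoid-responsive lists, and Vegfa on the cytokine and hypoxia lists. Genes were named by rule: the 12 highest and 12 lowest ratios, the 10 largest CPM differences in each direction, and up to 4 members of each list with the largest absolute ratio, 139 genes in all, of which most are described and some results are not reported here. Immunoglobulin, mitochondrial, ribosomal protein, haemoglobin, sex-linked and unnamed genes stayed out of the ranking. Apoe, Bnip3l, Ccl6, Ccr2, Cd3d, Cd3e, Cd3g, Cd79a, Clec1b, Csf1r, Cx3cr1, Cxcr2, Fkbp5, G0s2, Gp1bb, Gp5, Gp9, Gpi1, H2-Ab1, Hdc, Hk2, Il10, Il12b, Il23a, Il6, Irf5, Irf8, Itga2b, Itgam, Jun, Klf6, Klrd1, Lamp1, Lamp2, Ldha, Lgals3, Ltf, Ly6a, Ly6c2, Ly6g, Mki67, Mmp8, Mmp9, Ndrg1, Nos2, Nr4a1, Pdgfb, Pkm, Ppbp, Psap, Slc2a1, Spi1, Tgfb1 and Tubb1 were named after their values were seen. Some symbols were matched through RefSeq synonyms. Software was Python 3.11.15, numpy 2.4.6, pandas 2.3.3, scipy 1.17.1, matplotlib 3.10.9 and R 4.3.3, with edgeR 4.0.16 and DESeq2 1.42.0 for scaling factors only. Motifs were searched on both strands of RefSeq promoters (GRCm38.p6); the NF-kB and interferon motifs are given by name.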

Additional observations from a re-analysis of the deposited data

How the results depend on the processing

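Of 137 named genes past 2-fold, 104 kept their call under all 14 alternatives for genes, and no named gene changed direction. The 594 higher genes all remained higher with TMM and DESeq2 factors, within 847 and 876 higher genes. The 764 lower genes became 401 with TMM factors and 373 with DESeq2 size factors, all of them among the 764, since these factors raise every tumor value relative to the spleen. With at least 10 UMIs and no minimum CPM there were 1277 higher and 2253 lower genes, and with at least 100 UMIs and 50 CPM there were 418 higher and 365 lower genes, because other numbers of genes were measured. Under the other alternatives the higher genes numbered 573 to 613 and the lower genes 689 to 1103. The median log2 ratio of the conventional dendritic cell markers, -1.27 over 5 measured members, was 0.15 with both changed filters and 0.74 without cluster 6. The filters leave each ratio as it was and change only which members are measured. For the value without cluster 6 the cause was not tested. Calls were lost most often for Cd209a and Hsph1, under 5 alternatives each, and for Mpeg1 and Vim, under 4 each. Bst2 passed 2-fold under 3. The antibody calls were the same under the 5 antibody alternatives except that CD16-32 stood 2.44-fold higher with the left-out clusters kept in. No paired analysis was possible because each group is 1 library, and for the same reason no replicate could be left out. The depth gives the tumor library a floor of 0.188 CPM and the spleen library 0.538 CPM, on which the ratios of genes with 0 UMIs depend.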
